A study of Homo sapiens with 9 samples.

Results

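The transcripts described here encode 10 chaperones and proteases that work inside mitochondria: HSPD1, HSPE1, HSPA9, DNAJA3, TRAP1, LONP1, CLPP, CLPX, YME1L1 and AFG3L2. They were taken by gene name as genes tied to the mitochondrial unfolded protein response, and they were 10 of the 61552 genes in the deposited tables. All 10 were among the 16572 genes with enough reads to be tested. The RNA was from the established human triple-negative breast cancer line MDA-MB-231 after 24 h in 0 mM (control), 10 mM or 20 mM 2-deoxyglucose (2-DG), a glucose analogue that slows glycolysis. Each dose had 3 libraries of messenger RNA, and levels were given as FPKM, fragments scaled to transcript length and library size. Levels of different genes therefore rest on the transcript length used for each. The comparisons ask how these transcripts stood at each dose against control and at 20 mM against 10 mM.

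The library totals behind the FPKM values, worked back from genes with 1 read, ranged from 34300991 to 36650036 reads in the control libraries. They ranged from 34374980 to 40843638 at 10 mM and from 30974968 to 39780925 at 20 mM. At these depths 1 read on a transcript of 1 kilobase corresponded to 0.0245 to 0.0323 FPKM. Every member was far above that limit: the lowest read number of any member in any library was 348, for HSPE1. The control libraries served both dose comparisons, so these are not independent of each other.

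As background, proteins made in the cytosol enter the mitochondrial matrix unfolded, where HSPA9, the mitochondrial HSP70, pulls them in and, with the J-domain protein DNAJA3 of the matrix, helps them fold. HSPD1 and its lid HSPE1 form the chaperonin chamber in which many of them fold, and TRAP1 is the HSP90 of the matrix. LONP1 and the ClpXP complex, in which CLPX unfolds and CLPP cuts, degrade matrix proteins, while YME1L1 and AFG3L2 are proteases of the inner membrane, and all of these genes are nuclear.

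By their RefSeq starts HSPD1 and HSPE1 lie head to head on chromosome 2, and the stretch between these starts is shown because both genes were lower with 2-DG. In RefSeq (GRCh38.p14) the upstream start of HSPD1, at 197500274 on the minus strand, and the start of HSPE1, at 197500379 on the plus strand, had 104 bases between them. Windows from 250 bases before to 50 bases after a start were available for 8 of the 10 members, with 10 windows in all, and not for CLPP and YME1L1. Both strands of each window were searched for 5 motifs, and each share below refers to 35116 promoter windows of the same length. The NRF1 motif core, GCGCANGCG, was in windows of 5 members (CLPX, DNAJA3, HSPD1, HSPE1 and LONP1) and in 7.52% of all promoters. These members went in different directions with 2-DG: LONP1 was higher at both doses, CLPX was called higher at 20 mM only, and DNAJA3 was not called. The capitals in the stretch between the starts, chr2:197500275-197500378 on the plus strand, mark its match, written here on the strand of HSPE1, and these same 9 bases are the match counted for both HSPD1 and HSPE1.
HSPE1: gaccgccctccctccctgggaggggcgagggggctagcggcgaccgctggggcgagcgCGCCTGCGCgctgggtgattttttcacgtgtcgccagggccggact

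A paired heat shock element, GAANNTTC, was found for HSPD1 alone among the members and in 6.77% of all promoters. It lay before a further HSPD1 start at 197499840, with its first base at -240 from that start and 299 bases from the start of HSPE1. The 30 bases around it, chr2:197500056-197500085 on the minus strand, are shown with the match in capitals because this element is the classical one of cytosolic heat shock genes.
HSPD1: ttctgGAAAGTTCtggaaccgagcgaggcc

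The cyclic AMP response element, TGACGTCA, was present in the window of TRAP1 alone among the members, from position -94, and in 1.85% of all promoters. The TRAP1 stretch chr16:3717598-3717774 on the minus strand covers -250 to -74, with the match in capitals, and is shown because TRAP1 was lower at both doses under every processing setting.
TRAP1: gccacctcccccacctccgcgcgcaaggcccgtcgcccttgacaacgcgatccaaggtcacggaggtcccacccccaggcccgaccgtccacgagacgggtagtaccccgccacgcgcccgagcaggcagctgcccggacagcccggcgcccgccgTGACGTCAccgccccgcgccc

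An amino acid response element, TGATGCAA, was in the windows of 0 members and in 0.866% of all promoters. The ER stress response element, read as CCAAT and CCACG with 9 bases between them, was also in 0 member windows and in 0.0769% of all promoters. For contrast with HSPA9, the promoter of its relative in the endoplasmic reticulum (ER), HSPA5, is shown from -250 to -1 (chr9:125241344-125241593, minus strand), with the match that began at -66 in capitals.
HSPA5: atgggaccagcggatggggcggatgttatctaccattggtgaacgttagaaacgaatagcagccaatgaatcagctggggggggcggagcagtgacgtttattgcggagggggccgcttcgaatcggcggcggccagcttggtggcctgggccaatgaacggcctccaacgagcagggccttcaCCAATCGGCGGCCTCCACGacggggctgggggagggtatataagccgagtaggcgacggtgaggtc
These matches describe the letters in the windows only. The member windows were rich in G and C, from 63.7% to 76.3% with a median of 68%, against a median of 58.7% over all promoters.

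Positions of the genes were read from GENCODE 29 on GRCh38. HSPD1 (ENSG00000144381) lay at chr2:197486581-197516737 and HSPE1 (ENSG00000115541) at chr2:197499994-197503457. HSPA9 (ENSG00000113013) lay at chr5:138553756-138575724, DNAJA3 (ENSG00000103423) at chr16:4425805-4456775 and TRAP1 (ENSG00000126602) at chr16:3651639-3717597. LONP1 (ENSG00000196365) lay at chr19:5691834-5720572, CLPP (ENSG00000125656) at chr19:6361452-6368910 and CLPX (ENSG00000166855) at chr15:65148219-65185342. YME1L1 (ENSG00000136758) lay at chr10:27110112-27155266 and AFG3L2 (ENSG00000141385) at chr18:12328944-12377314. In GENCODE 29 the span of HSPE1 thus lay within that of HSPD1, and the 104 bases given above hold for the RefSeq starts. Annotated exons of HSPD1 and HSPE1 shared 281 bases on opposite strands. HSPE1 also shared 192 exon bases on the same strand with the readthrough gene HSPE1-MOB4, which was listed at 0 in every library, and the next gene, MOB4, fell by 0.74 at 20 mM (adjusted p 0.00124). The part of such readthrough in the values of HSPE1 was not tested. YME1L1 shared 443 exon bases with MASTL, AFG3L2 shared 837 with TUBB6 and TRAP1 shared 1531 with DNASE1, each on the opposite strand. The sources do not state whether reads were counted by strand, so reads on these shared bases cannot be told apart. Processed copies of HSPD1 and HSPE1 elsewhere in the genome were low: of 18 HSPD1 pseudogenes the highest reached 1.09 FPKM in any library, and of 26 HSPE1 pseudogenes the highest reached 1.62.

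The marker check fitted the named line in part. VIM (243 to 313 FPKM), CD44 (52.9 to 74.1), KRT18, EGFR and ANXA1 were detected in every library. Of the receptor transcripts that define the triple-negative class, ESR1 was at most 0.0083 FPKM and PGR at most 0.0204. ERBB2 was detected in every library, at 5.53 to 9.11, beside means of 6.18 for CLPX and 6.22 for AFG3L2 among the members. CDH1 and EPCAM, also listed as low in this line, were at most 0.417 and at 2.61 to 4.51. Among 12 markers of other cell types, 7 were under 0.1 FPKM in every library, with PTPRC at most 0.0327. CD14 (1.14 to 3.83 FPKM), GATA3 (1.17 to 2.34) and PECAM1 (0.826 to 1.95) were detected in every library. The summed level of the 12 markers was 19.2 to 20.8 FPKM in control, 13.9 to 19.7 at 10 mM and 12.8 to 13.7 at 20 mM. The most abundant of them was TFF1 with 8.79 to 14.4 FPKM, listed like GATA3 as a marker of luminal epithelium. The part of cells with these markers in the results below was not tested.

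Levels of the members spanned a wide range. In control the order of mean FPKM, with the lengths behind the deposited values, was LONP1, HSPD1, HSPA9, CLPP, YME1L1, HSPE1, TRAP1, DNAJA3, AFG3L2 and CLPX, with the libraries of LONP1 and HSPD1, and those of HSPE1 and TRAP1, overlapping. Over all 9 libraries LONP1 had a higher mean FPKM than 98.1% of the tested genes, HSPD1 than 96.7% and HSPA9 than 96.2%. The lowest member, CLPX, was still above 67.3% of them. With 20 mM 2-DG, HSPA9 stood above HSPD1 in the order, and the libraries of these 2 genes did not overlap, while at 10 mM they did. This order depended on length: the deposited values for HSPD1 rested on 7629 bases, where GENCODE 29 gives 4245 exon bases, and those for HSPA9 on 9782, where it gives 8254. With the GENCODE lengths HSPD1 averaged 139 FPKM in control, above LONP1 at 87.7, and at 20 mM it averaged 119, below LONP1 at 134 and above HSPA9 at 86.2. CLPP, with 3531 bases against 2278, averaged 54.5 in control, with libraries that overlapped those of HSPA9. The ratio of the FPKM of a gene between groups does not depend on its length.

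**Figure D1:**
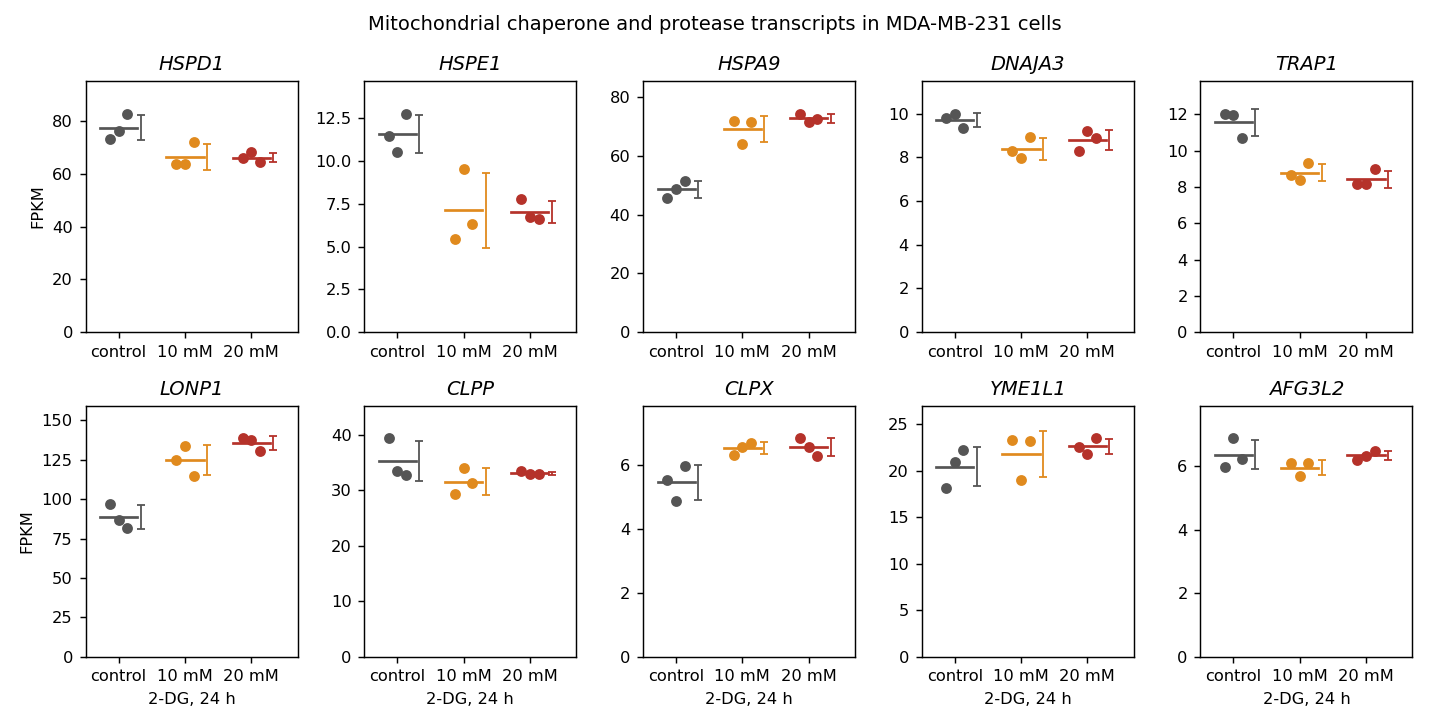
FPKM of each member (vertical axis, from 0) in control, 10 mM and 20 mM 2-DG libraries, with each dot a library, each horizontal line the mean of 3 and each bar the SD. LONP1 and HSPA9 libraries with 2-DG all lie above their control libraries, with LONP1 control at 82.0 to 97.2 and 20 mM at 130.9 to 138.6, while HSPD1, HSPE1 and TRAP1 lie below theirs.

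At 10 mM, 2 of the 10 members were higher than control at an adjusted p under 0.05 (limma, Benjamini-Hochberg over all tested genes), beside 12.1% of all tested genes, and 3 were lower, beside 17.5%. At 20 mM, 3 members were higher, beside 15.4% of all tested genes, and 3 were lower, beside 21.6%. With median-ratio or upper-quartile scaling the members' counts were 3 higher and 2 lower at each dose. Beside these, median-ratio scaling called 2242 higher and 2483 lower of 16572 tested genes at 10 mM, and 2923 and 3058 at 20 mM. Upper-quartile scaling called 2481 higher and 2324 lower at 10 mM. Over all tested genes the balance of directions itself depended on scaling: 2544 were higher and 3582 lower at 20 mM, against 3277 higher and 2780 lower with upper-quartile scaling. The median log2 fold change of the members was -0.12 at 10 mM, against -0.01 over all tested genes. At 20 mM the members' median was -0.04, against -0.02 over all tested genes, and it was 0.01 with median-ratio scaling and 0.05 with upper-quartile scaling. Some members were called in each direction, as were tested genes in general, so nothing about the members as a set is read from these counts. Under a rule with a size limit, 0 members passed the threshold of unadjusted p under 0.05 with a log2 fold change over 1 in size (limma, and also 0 with limma-voom), beside 1.74% of tested genes at 10 mM and 2.92% at 20 mM, so nothing is read from this count. An unadjusted p under 0.05 was found for 7 members at 10 mM, beside 40.4% of all tested genes, and for 6 at 20 mM, beside 46%. The libraries of 7 of 10 members did not overlap with control at 10 mM, beside 40.5% of all tested genes, and 7 of 10 did not at 20 mM, beside 53.3%. These tests measure the spread between libraries, which may be technical, since the labels do not say whether the libraries came from separate cultures. Fewer cells holding a transcript and less of it in each cell cannot be told apart in bulk RNA.

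**Figure D2:**
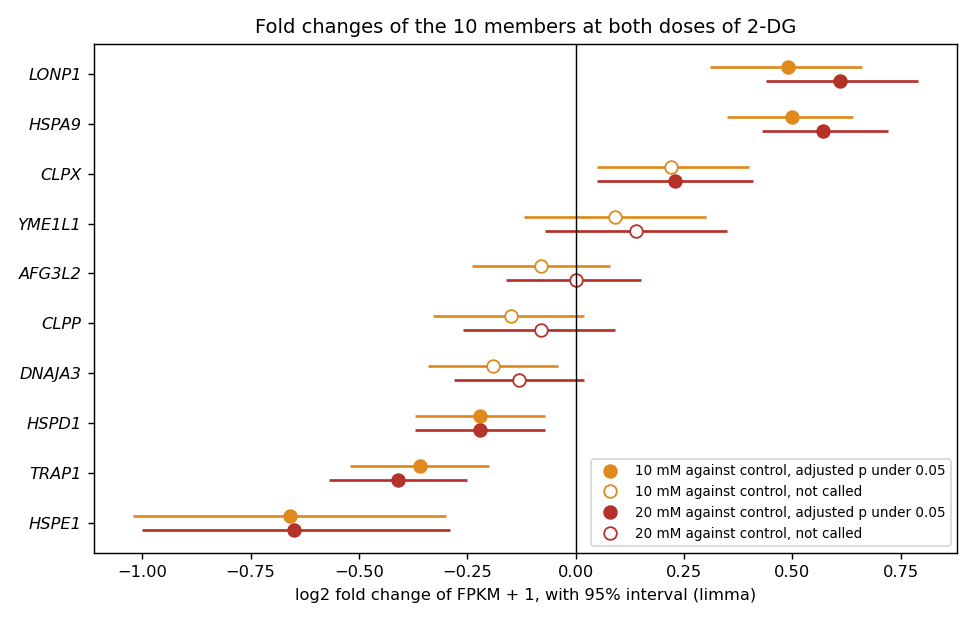
Log2 fold change of FPKM + 1 (horizontal axis) for each member at 10 mM and 20 mM 2-DG against control, with lines for the 95% interval and filled dots for an adjusted p under 0.05. LONP1 (0.61 at 20 mM) and HSPA9 (0.57) lie at the top and HSPE1 (-0.65) at the bottom.

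HSPD1, the barrel of the chaperonin, had 73.3, 76.3 and 82.7 FPKM in the control libraries. It had 63.7, 63.6 and 72.1 FPKM at 10 mM, and 65.9, 68.1 and 64.5 at 20 mM. Every 2-DG library lay below every control library, though the highest at 10 mM came within a short distance of the lowest control. The mean was 77.4 ± 4.81 FPKM (SD, n = 3) in control and 66.2 ± 1.83 (SD, n = 3) at 20 mM. HSPD1 fell by 0.22 on the log2 scale at 10 mM (95% interval -0.37 to -0.07, adjusted p 0.0367, limma) and by the same amount at 20 mM (-0.22, interval -0.37 to -0.07, adjusted p 0.0278). This call was not firm: with median-ratio scaling the adjusted p was 0.0805 at 10 mM and 0.087 at 20 mM, with upper-quartile scaling 0.118 and 0.168, and leaving out control library 2, control library 3 or any 20 mM library lost it at both doses. Leaving out 10 mM library 1 or 10 mM library 2 lost it at 10 mM only.

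HSPE1, the lid of the same chamber, had 11.4, 10.5 and 12.8 FPKM in control. It had 5.43, 9.55 and 6.34 FPKM at 10 mM and 7.76, 6.72 and 6.59 at 20 mM. All 6 libraries with 2-DG were below control, and 10 mM library 2 stood well above the other libraries of its group. Control libraries averaged 11.6 ± 1.12 FPKM (SD, n = 3), those with 10 mM averaged 7.11 ± 2.16 (SD, n = 3), and with 20 mM the average was 7.02 ± 0.642 (SD, n = 3). HSPE1 fell by 0.66 at 10 mM (interval -1.02 to -0.30, adjusted p 0.012) and by 0.65 at 20 mM (interval -1.0 to -0.29, adjusted p 0.0104), the largest decrease among the members at each dose. As a change in mean FPKM this was -38.6% and -39.3%, beside -14.2% and -14.6% for HSPD1. Its calls held in all 21 other processing settings.

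The ratio of lid to barrel was compared within each library. The log2 ratio of HSPE1 to HSPD1 was -2.68, -2.86 and -2.70 in control, -3.55, -2.74 and -3.51 at 10 mM, and -3.09, -3.34 and -3.29 at 20 mM. Of the libraries with 2-DG, 10 mM library 2 lay within the control range and the others lay below it. In FPKM, HSPD1 stood 6.71-fold above HSPE1 in control, 9.61-fold at 10 mM and 9.45-fold at 20 mM, and with the GENCODE lengths 13.1-fold, 18.7-fold and 18.4-fold. The mean of the 6 libraries with 2-DG differed from that of the 3 control libraries by -0.51 on the log2 scale (two-sided exact permutation test, p 0.0476, adjusted p 0.0476 over 3 ratios, smallest possible p 0.0238). HSPE1 was a short transcript of 1823 bases, and 10 mM library 2 was also the library in which short genes stood highest against long ones. The difference between long and short genes in that library was -0.21 on the log2 scale, against 0.23 in 10 mM library 1, where HSPE1 was lowest. The part of transcript length in the HSPE1 values was not tested. Without the 2 libraries highest in short genes the ratio differed by -0.58, and without the 2 highest in long genes by -0.50. Both settings were chosen after seeing the data. Leaving out 10 mM library 2 gave -0.61 (adjusted p 0.0357, exact), while leaving out any other single library gave an adjusted p of 0.0714 or 0.143.

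HSPA9, the mitochondrial HSP70, moved the other way from the chaperonin. Its libraries had 45.6, 48.7 and 51.5 FPKM in control, 71.8, 64.0 and 71.5 at 10 mM and 74.3, 71.4 and 72.5 at 20 mM. The groups were well separated from control, and the 20 mM libraries lay close together. Over all tested genes the 20 mM libraries were also the most alike. Pearson's r between them was 0.9957 to 0.9961, against 0.994 to 0.9949 in control and 0.9889 to 0.9938 at 10 mM. Control libraries averaged 48.6 ± 2.98 FPKM (SD, n = 3), those with 10 mM averaged 69.1 ± 4.41 (SD, n = 3), and with 20 mM the average was 72.7 ± 1.46 (SD, n = 3). The log2 fold change was 0.50 at 10 mM (interval 0.35 to 0.64, adjusted p 4.0e-04) and 0.57 at 20 mM (interval 0.43 to 0.72, adjusted p 1.2e-04), or 49.6% in mean FPKM at 20 mM. These calls held in all 21 other settings. Its J-domain partner DNAJA3 had 9.80, 9.99 and 9.33 FPKM in control, 8.28, 7.95 and 8.93 at 10 mM and 8.30, 9.23 and 8.86 at 20 mM. Although no 2-DG library reached the control range, DNAJA3 was not called. Its log2 fold change was -0.19 at 10 mM (adjusted p 0.0601) and -0.13 at 20 mM (interval -0.28 to 0.02, adjusted p 0.169). The 20 mM value was -0.04 with upper-quartile scaling. The 10 mM value was called only when the fit had no trend (adjusted p 0.046).

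TRAP1, the HSP90 of the matrix, had 12.0, 12.0 and 10.7 FPKM in control. It had 8.63, 8.40 and 9.30 FPKM at 10 mM and 8.15, 8.17 and 8.98 at 20 mM. Control library 3 was the lowest of its group and still above all libraries with 2-DG. TRAP1 fell by 0.36 at 10 mM (interval -0.52 to -0.20, adjusted p 0.00445) and by 0.41 at 20 mM (interval -0.57 to -0.25, adjusted p 0.00155). In mean FPKM it went from 11.6 ± 0.734 (SD, n = 3) to 8.43 ± 0.469 (SD, n = 3) at 20 mM, and the call held in all 21 other settings. DNASE1, which shares exon bases with TRAP1, was low, with a mean of 1.00 FPKM in control and 0.851 at 20 mM.

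Among the proteases, LONP1 was the most abundant and the one with the largest increase. Its libraries had 97.2, 86.6 and 82.0 FPKM in control, 125.1, 134.1 and 114.9 at 10 mM and 138.6, 137.9 and 130.9 at 20 mM. Every library with 2-DG lay above control, with control library 1 the highest of its group. The average was 88.6 ± 7.77 FPKM (SD, n = 3) without 2-DG, 125 ± 9.59 (SD, n = 3) with 10 mM, and 136 ± 4.29 (SD, n = 3) with 20 mM. The log2 fold change was 0.49 at 10 mM (interval 0.31 to 0.66, adjusted p 0.00135) and 0.61 at 20 mM (interval 0.44 to 0.79, adjusted p 2.4e-04), and both calls held in all 21 other settings.

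Of CLPX and CLPP, the unfoldase and the peptidase of a single complex, only CLPX was called. CLPX had 5.54, 4.87 and 5.96 FPKM in control, 6.32, 6.56 and 6.69 at 10 mM and 6.83, 6.57 and 6.28 at 20 mM. The groups did not overlap, though control library 3 lay near the lowest libraries with 2-DG. CLPX rose by 0.23 on the log2 scale at 20 mM (interval 0.05 to 0.41, adjusted p 0.044), while at 10 mM the value was 0.22 (interval 0.05 to 0.40) and not called at an adjusted p of 0.0577. Neither side of the threshold was firm. The 20 mM call was lost in 11 of 21 other settings, among them leaving out control library 1 (adjusted p 0.0756), control library 2 (0.155), 10 mM library 3 (0.0595) or any 20 mM library (0.0703 to 0.141), and the 10 mM value was called in 5, among them median-ratio scaling (0.0469), upper-quartile scaling (0.0284) and leaving out control library 3 (0.0373). CLPP had 39.3, 33.4 and 32.8 FPKM in control, 29.2, 34.0 and 31.4 at 10 mM and 33.4, 32.9 and 32.9 at 20 mM. Its groups overlapped, and its log2 fold change was -0.15 at 10 mM (adjusted p 0.182), or -0.07 with control library 1 left out, and -0.08 at 20 mM (interval -0.26 to 0.09, adjusted p 0.451, with a value of 0.01 under upper-quartile scaling and -0.00 without control library 1).

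Within each library the log2 ratio of CLPX to CLPP was -2.83, -2.78 and -2.46 in control, -2.21, -2.37 and -2.23 at 10 mM and -2.29, -2.32 and -2.39 at 20 mM. All 6 libraries with 2-DG were above the 3 control libraries, the nearest control being library 3. The mean difference was 0.39 (two-sided exact permutation test, p 0.0238, adjusted p 0.0357 over 3 ratios), and this p was the smallest that 6 libraries against 3 allow. Leaving out any single 2-DG library gave a p of 0.0357, and any control library 0.0714 (exact permutation test), with all libraries still apart. Each p was the smallest possible in its setting. The adjusted p, taken over 3 ratios, was 0.0357 without 10 mM library 2 and 0.0536 to 0.107 without any other single library. CLPP transcripts stood 6.45-fold above CLPX in control, 4.83-fold at 10 mM and 5.04-fold at 20 mM, and with the GENCODE lengths 9.99-fold, 7.48-fold and 7.82-fold.

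**Figure D3:**
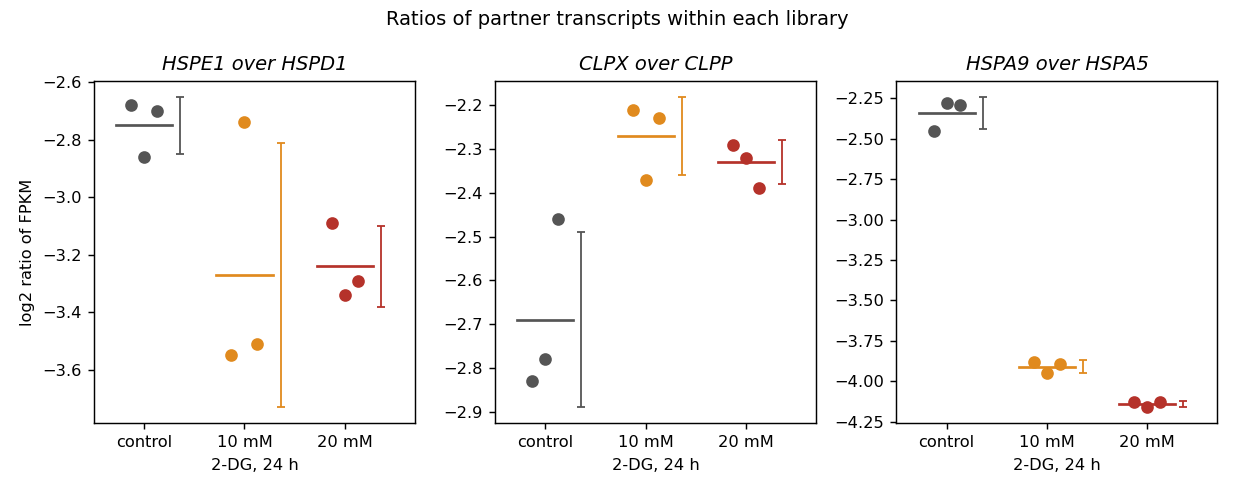
Log2 ratio of FPKM within each library (vertical axis) for HSPE1 to HSPD1, CLPX to CLPP and HSPA9 to HSPA5 in control, 10 mM and 20 mM 2-DG, with dots for libraries, lines for means and bars for the SD of 3. The HSPA9 to HSPA5 ratio goes from -2.34 to -4.14, and a single 10 mM library of HSPE1 to HSPD1 (-2.74) lies in the control range.

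Neither of the inner membrane proteases among the members, YME1L1 and AFG3L2, was called at either dose. YME1L1, whose active site faces the space between the membranes, had 18.2 to 22.2 FPKM in control, 18.9 to 23.3 at 10 mM and 21.8 to 23.5 at 20 mM, so its groups overlapped. Its log2 fold change at 20 mM was 0.14 (interval -0.07 to 0.35, adjusted p 0.264). It was 0.07 with control library 1 left out and 0.23 with upper-quartile scaling, and not called in any of the 21 other settings. MASTL, which shares exon bases with YME1L1 on the other strand, went from a mean of 11.5 FPKM in control to 2.90 at 20 mM. AFG3L2, which faces the matrix, had 5.98 to 6.88 FPKM in control, 5.69 to 6.09 at 10 mM and 6.21 to 6.50 at 20 mM. Its intervals ran from -0.24 to 0.08 at 10 mM and from -0.16 to 0.15 at 20 mM, where the value itself was -0.00 and turned to 0.04 with median-ratio and 0.08 with upper-quartile scaling. TUBB6, which shares exon bases with AFG3L2, went from a mean of 79.8 FPKM to 57.8 at 20 mM, and the part of these neighbours in the values of YME1L1 and AFG3L2 was not tested.

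Between the doses, 0 of 10 members were called at 20 mM against 10 mM by limma, beside 0% of all tested genes in each direction, and 0 had an unadjusted p under 0.05, beside 6.87% (1139) of all tested genes. With limma-voom the count was also 0. The log2 fold changes ran from -0.05 to 0.12, with 8 positive and 2 negative, and their 95% intervals stayed between -0.34 and 0.37. The largest in the main setting, for LONP1, was 0.12 (interval -0.05 to 0.30), and 0.07 to 0.18 with single libraries left out. Without 10 mM library 2 the value for HSPE1 was higher, at 0.22. AFG3L2 was the 1 member of 10 whose libraries did not overlap between the doses, beside 11.9% of all tested genes, and its log2 fold change was 0.08 with an adjusted p of 0.927. CLPX, called at 20 mM and not at 10 mM, was thus not shown to differ between the doses.

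Relatives of the members in the ER and the cytosol were compared next. HSPA5, the HSP70 of the ER, had a mean of 245 FPKM in control, 1034 at 10 mM and 1282 at 20 mM, a log2 fold change of 2.38 at 20 mM (adjusted p 1.4e-07). The log2 ratio of HSPA9 to HSPA5 averaged -2.34 ± 0.10 (SD, n = 3) in control, while 10 mM libraries averaged -3.91 ± 0.04 (SD, n = 3) and with 20 mM the average was -4.14 ± 0.02 (SD, n = 3). The libraries with 2-DG differed from control by -1.69 (two-sided exact permutation test, p 0.0238, adjusted p 0.0357 over 3 ratios). Leaving out single libraries gave differences of -1.74 to -1.65. The p was 0.0357 without any 2-DG library and 0.0714 without any control library (exact permutation test), each the smallest possible in its setting. The adjusted p, taken over 3 ratios, was 0.0357 without 10 mM library 2 and 0.0536 to 0.107 without any other single library. HSPA5 thus stood 5.05-fold above HSPA9 in control and 17.6-fold at 20 mM (7.12-fold and 24.8-fold with the GENCODE lengths), although HSPA9 itself rose. The ER counterpart of TRAP1, HSP90B1, went from 90.4 to 323 FPKM at 20 mM (log2 fold change 1.83, adjusted p 3.7e-06), opposite to TRAP1. Of 18 cytosolic HSP70, HSP90 and chaperonin genes and their partners, 11 were lower at each dose (limma). This stood beside 17.5% of all tested genes at 10 mM and 21.6% at 20 mM. With median-ratio or upper-quartile scaling 7 were lower at 10 mM and 6 at 20 mM, while TPM scaling gave 14 and 12. Of 16572 tested genes, 2483 and 3058 were lower with median-ratio, 2324 and 2780 with upper-quartile and 2975 and 3411 with TPM scaling. At each dose 0 of the 18 were higher by limma, 0 by limma-voom and 0 at an unadjusted p under 0.05, where 12.1% and 15.4% of all tested genes were higher by limma. Among them HSP90AA1 fell by 0.54 at 20 mM (adjusted p 5.5e-04) and HSPA1A by 0.86 (adjusted p 2.3e-04).

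**Figure D4:**
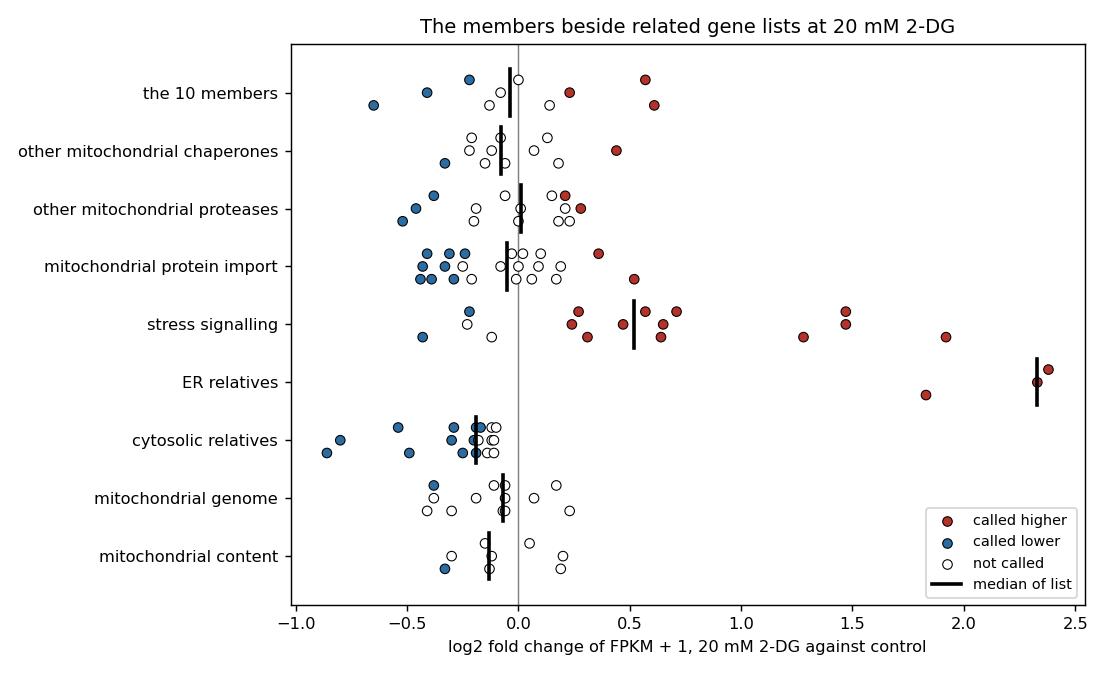
Log2 fold change of FPKM + 1 at 20 mM 2-DG against control (horizontal axis) for each tested gene of the members and of 8 related lists, coloured by call, with a black bar for the median of each list. The members' median is -0.04, that of the ER relatives 2.33 and that of the cytosolic relatives -0.19.

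Counts for other mitochondrial chaperones and proteases depended on scaling. They are given beside 15.4% higher and 21.6% lower over all tested genes at 20 mM in the main scaling. Median-ratio scaling gave 2923 higher and 3058 lower of 16572 tested genes at 20 mM, and upper-quartile scaling 3277 and 2780. Of 11 other chaperones, 1 was higher and 1 lower at 20 mM, with a median log2 fold change of -0.08, and with upper-quartile scaling 3 were higher and 0 lower. The higher gene was CLPB, a disaggregase, with 2.60 FPKM in control and 3.88 at 20 mM (log2 fold change 0.44, adjusted p 0.00327). The lower gene was the more abundant PHB2, from 57.3 to 45.4 FPKM (log2 fold change -0.33, adjusted p 0.00673), a call lost with upper-quartile scaling (-0.24, adjusted p 0.0507). GRPEL1, the nucleotide exchange factor of HSPA9, was not called, with a log2 fold change of 0.13 (adjusted p 0.157), but was called with upper-quartile scaling (0.22, adjusted p 0.0318). Of 14 other proteases, 2 were higher and 3 lower at 20 mM, with a median of 0.01, and with median-ratio scaling 4 were higher and with upper-quartile scaling 5, beside 3 lower in each. SPG7, which forms a joint complex with AFG3L2, went from 4.39 to 5.55 FPKM at 20 mM (log2 fold change 0.28, adjusted p 0.0261), a call lost with TPM scaling (0.32, adjusted p 0.0579). ATP23 went from 1.54 to 0.770 FPKM at 20 mM (log2 fold change of FPKM + 1 -0.52, adjusted p 0.00141) and IMMP1L from 0.904 to 0.385 (-0.46, adjusted p 8.1e-04). For genes this low the added 1 makes the fold change smaller than the ratio of FPKM. The change in FPKM was -50% for ATP23 and -57.4% for IMMP1L. OMA1 had 1.83 FPKM in control, 2.37 at 10 mM (log2 fold change 0.25, not called) and 1.85 at 20 mM.

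HSPA9 acts as the motor of the import channel, so the import genes were set beside it. Of 23 listed import genes 22 were tested, and 2 were higher and 8 lower at 20 mM, beside 15.4% and 21.6% of all tested genes. Under median-ratio scaling 2 were higher and 4 lower, beside 2923 and 3058 of 16572 tested genes. Under upper-quartile scaling 4 were higher and 4 lower, beside 3277 and 2780 of 16572. The median of -0.05 became 0.04 under upper-quartile scaling. The higher genes were TIMM44, which holds HSPA9 at the channel, from 16.2 to 23.7 FPKM (log2 fold change 0.52, adjusted p 1.1e-04), and TIMM17A, from 24.9 FPKM in control (log2 fold change 0.36, adjusted p 0.00502). The small TIMM8B fell by 0.41 (adjusted p 0.00815). TIMM44 had the largest increase of the import genes at 20 mM, at 0.52 beside 0.57 for HSPA9, so it does not stand for the list. The co-chaperones PAM16 and DNAJC19, listed with the other chaperones, had values of -0.22 (adjusted p 0.0906) and -0.21 (adjusted p 0.129) at 20 mM, neither called by limma. PAM16, with 0.993 FPKM in control, was called lower at 10 mM (-0.33, adjusted p 0.0252).

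Transcripts of a stress signalling list were mostly higher. The list was chosen with earlier results of these data known, so its counts are a description and not a test. It held factors, some of which are known to act on mitochondrial chaperone genes, beside genes such as ASNS, CHAC1 and GDF15. Of 16 tested genes 10 were higher and 1 lower at 10 mM, beside 12.1% and 17.5% of all tested genes. Upper-quartile scaling gave 10 and 0, beside 2481 and 2324 of 16572 tested genes. At 20 mM 12 were higher and 2 lower, beside 15.4% and 21.6% of all tested genes. With upper-quartile scaling 12 were higher and 1 lower at 20 mM, beside 3277 and 2780 of 16572. The median was 0.52 at 20 mM against -0.02 over all tested genes. ATF4 went from 145 to 228 FPKM at 20 mM (log2 fold change 0.65, adjusted p 1.4e-04), DDIT3 from 27.2 to 77.1 (1.47, adjusted p 1.2e-05) and TRIB3 from 29.7 to 114 (1.92, adjusted p 5.1e-07). ATF5, a factor linked to the mitochondrial response in mammals, was not called, with 12.0 FPKM in control and 10.1 at 20 mM (log2 fold change -0.23, adjusted p 0.164). HSF1 was higher at 20 mM by 0.24 (adjusted p 0.0129). The 2 lower genes at 20 mM were EIF2AK4 (log2 fold change -0.43, adjusted p 0.0128) and EIF2AK1 (-0.22, adjusted p 0.0321). The call of EIF2AK1 was lost with median-ratio and upper-quartile scaling.

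Mitochondrial transcripts in general were read from further lists. Over all tested genes limma called 12.1% higher and 17.5% lower at 10 mM, and 15.4% and 21.6% at 20 mM. Upper-quartile scaling gave 3277 higher and 2780 lower of 16572 tested genes at 20 mM. Of the 13 protein-coding genes of the mitochondrial genome, 0 were called at 10 mM by limma, 1 had an unadjusted p under 0.05, and limma-voom called 2 higher and 1 lower. At 20 mM 1 was lower, MT-ND5 (log2 fold change -0.38), a call lost with median-ratio and upper-quartile scaling, and limma-voom called 1 higher and 2 lower. Intervals for these genes were wide, as for MT-CO2 at 20 mM (-0.41 to 0.75). Of 8 nuclear genes used for mitochondrial content, 1 was lower at 20 mM, with a median of -0.13, and with upper-quartile scaling 2 were higher and 1 lower, with a median of -0.04. The lower gene was VDAC3 (log2 fold change -0.33, adjusted p 0.00574), and 4 of the 8 were lower and 1 higher at an unadjusted p under 0.05, beside 46% of all tested genes in either direction.

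The genes whose levels followed the members most closely over the 9 libraries were ranked by Pearson's r among 6009 genes. For HSPA9 the closest were CANX and TES (each r 0.993) and TCEA1 (r 0.992). For LONP1 the closest were CHAC1 (r 0.995) and DDOST (r 0.993), and for HSPD1 they were CLK1 (r 0.977) and RBM17 (r 0.974). These values describe libraries in which the groups themselves differed.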

How the data were processed

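The authors deposited FPKM per gene for each of 9 libraries, aligned to GRCh38 (hg38) per the submitters' processing notes; the aligner, the counting tool and the annotation are not given in the sources used here. Values had up to 15 significant digits in the 20 mM libraries and up to 10 in the control and 10 mM libraries, and the reason is not given. Members were the genes whose name matched a named list. The members and lists were chosen with earlier results of these data known. Library totals were worked back from genes with 1 read, and whole reads from FPKM and a length that made every library whole (tolerance 0.0001 plus 3e-09 of the value). Genes with at least 10 reads at median depth in at least 3 libraries and 15 reads in all were tested. The log2 of FPKM + 1 was fitted for 9 libraries in a single limma-trend model (R 4.3.3, limma 3.58.1), with Benjamini-Hochberg adjusted p over all 16572 genes and calls at an adjusted p under 0.05. Ratios within libraries were compared by two-sided exact permutation tests (Python 3.11.15, scipy 1.17.1; pandas 2.3.3, numpy 2.4.6, matplotlib 3.10.9). Alternatives were other scalings, filters, pseudocounts, limma-voom, a replicate block and leaving out libraries; leaving out pairs of libraries that were extreme in the levels of long against short genes was added after seeing the data. Promoter windows were read from RefSeq (GRCh38.p14).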

Additional observations from a re-analysis of the deposited data

How the results depend on the processing

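No called fold change of a member changed direction under the 21 alternatives, and HSPE1, HSPA9, TRAP1 and LONP1 kept their calls under all of them at both doses. HSPD1 lost its call in 13 of 21 at 10 mM (log2 fold change there -0.23 to -0.15) and in 8 of 21 at 20 mM (-0.24 to -0.13), and CLPX lost its call at 20 mM in 11 of 21 (0.16 to 0.26). Values near 0 that were not called changed sign in 20 of 630 cases, over 6 of the 10 members. Among them were 20 mM against 10 mM values of HSPD1, HSPE1 and CLPX, which were called against control. The ratio tests kept their direction throughout, and most settings with fewer libraries or permutations, which by construction raise the smallest possible p, gave an adjusted p over 0.05. With 10 mM alone the log2 difference was -0.52 for HSPE1 to HSPD1 (exact permutation test, adjusted p 0.2), 0.42 for CLPX to CLPP (0.15) and -1.57 for HSPA9 to HSPA5 (0.15). With 20 mM alone it was -0.49, 0.35 and -1.80 (adjusted p 0.1 each). With a replicate block, in which libraries were permuted within their number, it was -0.51 (adjusted p 0.148), 0.39 (0.111) and -1.69 (0.111), with a smallest possible p of 0.0741; library numbers tied groups no more than other pairings did, with correlations of -0.406 to 0.293 for equal and -0.23 to 0.521 for unequal numbers. Leaving out single libraries gave -0.61 to -0.45 (adjusted p 0.0357 to 0.143), 0.32 to 0.50 (0.0357 to 0.107) and -1.74 to -1.65 (0.0357 to 0.107). Leaving out the pair highest in short genes gave -0.58, 0.33 and -1.76, and the pair highest in long genes -0.50, 0.32 and -1.68, with a smallest possible p of 0.0952, and both settings were chosen after seeing the data. Each group had 3 libraries, whose origin as separate cultures the labels do not state, so differences within the printed intervals were not resolved, and FPKM carry no measure of total RNA per cell.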
